A study of Rattus norvegicus with 12 samples.

Results

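The proteasome is the protease complex that degrades most ubiquitin-tagged proteins of a cell. Its core particle, the 20S proteasome, is a barrel with outer rings of alpha subunits, which gate the entrance, and inner rings of beta subunits, of which Psmb5, Psmb6 and Psmb7 carry the catalytic sites. The 19S regulatory particle sits on the barrel, binds ubiquitin chains, removes them and unfolds the substrate with a ring of ATPases. In heart muscle cells this system turns over sarcomere proteins, and hypertrophic growth raises both synthesis and degradation of protein. After exposure to interferon, cells can replace the catalytic subunits by the immunoproteasome subunits Psmb8, Psmb9 and Psmb10.

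The constitutive proteasome genes were taken by name as all rows whose symbol starts with Psm, a letter from a to g and a digit, without the 5 immunoproteasome genes Psmb8, Psmb9, Psmb10, Psme1 and Psme2. This gave 44 members among 18469 genes. They were 7 alpha ring genes, 7 beta ring genes, 6 ATPases and 11 non-ATPases of the 19S particle, 7 assembly chaperones, 3 alternative caps and regulators (Psme3, Psme4 and Psmf1) and the tissue-restricted core paralogues Psma8 and Psmb11. Psmc3ip matched the name as well, but it encodes a meiotic recombination protein and not a proteasome subunit, so the name covers 1 gene that the complex does not hold.

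RNA was sequenced from neonatal rat ventricular myocytes (NRVMs) of Sprague-Dawley rats, which are heart muscle cells isolated from newborn animals and grown in culture, here in serum-free medium with insulin, transferrin and selenium. Cells received the negative control siRNA (siNeg) or an siRNA labelled siSlc25a26 and were left untreated or, 12 h later, given phenylephrine (PE), an alpha-adrenergic agonist that makes cardiomyocytes grow, for 36 h. The article that names these data describes an siRNA against Nap1l5 and other times, and the groups here follow the sample labels. There were 3 biological replicates in each of 4 groups, named siNeg and siSlc25a26 without PE and siNeg.PE and siSlc25a26.PE with it. Total counts per library ranged from 24770972 to 28709049, and 3 counts, taken as the detection floor, corresponded to 0.104 to 0.121 CPM on unscaled library totals, while the CPM of genes below are relative to totals scaled by TMM. Such a floor covers counting error only.

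Slc25a26, the mitochondrial carrier of S-adenosylmethionine and the target of the siRNA, had 33.7, 32.2 and 29.4 CPM in the siNeg libraries and 15.7, 14.7 and 14.7 CPM in the siSlc25a26 libraries. With PE it had 114, 106 and 86.9 CPM in siNeg.PE, while the libraries labelled siSlc25a26.PE had 101, 104 and 98.2 CPM. The target was thus lower in siSlc25a26 without PE (log2 fold change -1.08, SE 0.08, edgeR adjusted p = 1.08e-05), and under PE the groups overlapped (log2 fold change -0.0062, SE 0.10, edgeR adjusted p = 0.969). The target level therefore went against the label in the 3 libraries labelled siSlc25a26.PE, and every direction drawn from them below is a direction between libraries so labelled. Nppa and Nppb, natriuretic peptide genes that mark PE-induced growth, rose by 4.63 and 5.37 on the log2 scale with PE in siNeg.

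The labelled cell type was visible in its markers. The 10 cardiomyocyte markers summed to 21301 to 23668 CPM in siNeg, 25302 to 26430 in siNeg.PE, 18612 to 21650 in siSlc25a26 and 24693 to 25918 in the libraries labelled siSlc25a26.PE. Myh6 was the most abundant of them in siNeg and Tnnt2 in the other groups. The 10 fibroblast markers, led by Col1a1 in all 12 libraries, summed to 21833 to 23907 CPM in siNeg, 11721 to 12195 in siNeg.PE, 12360 to 13907 in siSlc25a26 and 8616 to 9420 in the libraries labelled siSlc25a26.PE. Such sums weigh the most abundant markers, and single markers went both ways. With PE in siNeg, 4 fibroblast markers lay above and 6 below 0, from -1.26 to 0.37 on the log2 scale. In siSlc25a26 without PE, 1 fibroblast marker lay above and 9 below 0. There 5 cardiomyocyte markers lay above and 5 below 0, from -0.66 to 0.14. No marker of these 2 lists was at 0 in any library. The 8 endothelial markers summed to 26.7 to 33.5 CPM over all libraries, with Kdr or Tek the most abundant. The 10 immune markers, led by Lyz2, summed to 111 to 136 CPM in siNeg, 61.6 to 69.9 in siNeg.PE, 60.0 to 69.4 in siSlc25a26 and 42.1 to 49.5 in those labelled siSlc25a26.PE, and in each of these lists at most 1 marker was at 0. The 6 mural cell markers summed to 935 to 976, 753 to 803, 778 to 827 and 1047 to 1101 CPM in the same order. Their members went both ways: with PE in siSlc25a26, 3 lay above and 3 below 0, from -0.70 to 3.35 on the log2 scale. Cspg4 was the most abundant of them in the libraries labelled siSlc25a26.PE and Pdgfrb in the other groups. The 5 markers of cycling cells summed to 121 to 130, 194 to 274, 101 to 114 and 105 to 145 CPM. Fewer cells of a type and less RNA per cell cannot be told apart in these bulk samples. The part of these marker sums in the proteasome results was not tested.

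Of the 44 members, 42 passed the filter on low counts and were tested in every comparison. Psma8 and Psmb11, known from testis and thymus, had 0 to 3 counts in each library, at or under the detection floor, and were not tested. Together the members took 0.452% ± 0.00681 (SD, n = 3) of all counts in siNeg, 0.490% ± 0.00528 in siNeg.PE, 0.551% ± 0.00350 in siSlc25a26 and 0.556% ± 0.0128 in the libraries labelled siSlc25a26.PE. On the scale of CPM with TMM factors, which assume that most genes do not change, their sum was 4452, 4970, 5226 and 5874 CPM in the same order. The step from siSlc25a26 to the libraries labelled siSlc25a26.PE was thus 1.12-fold on the TMM scale and 1.01-fold as a share of all counts. These values differ since the TMM factors were 1.04 to 1.06 in siSlc25a26 and 0.933 to 0.955 in siSlc25a26.PE. As summed FPKM the step was 0.975-fold, a fall from 4498 to 4387.

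**Figure D1:**
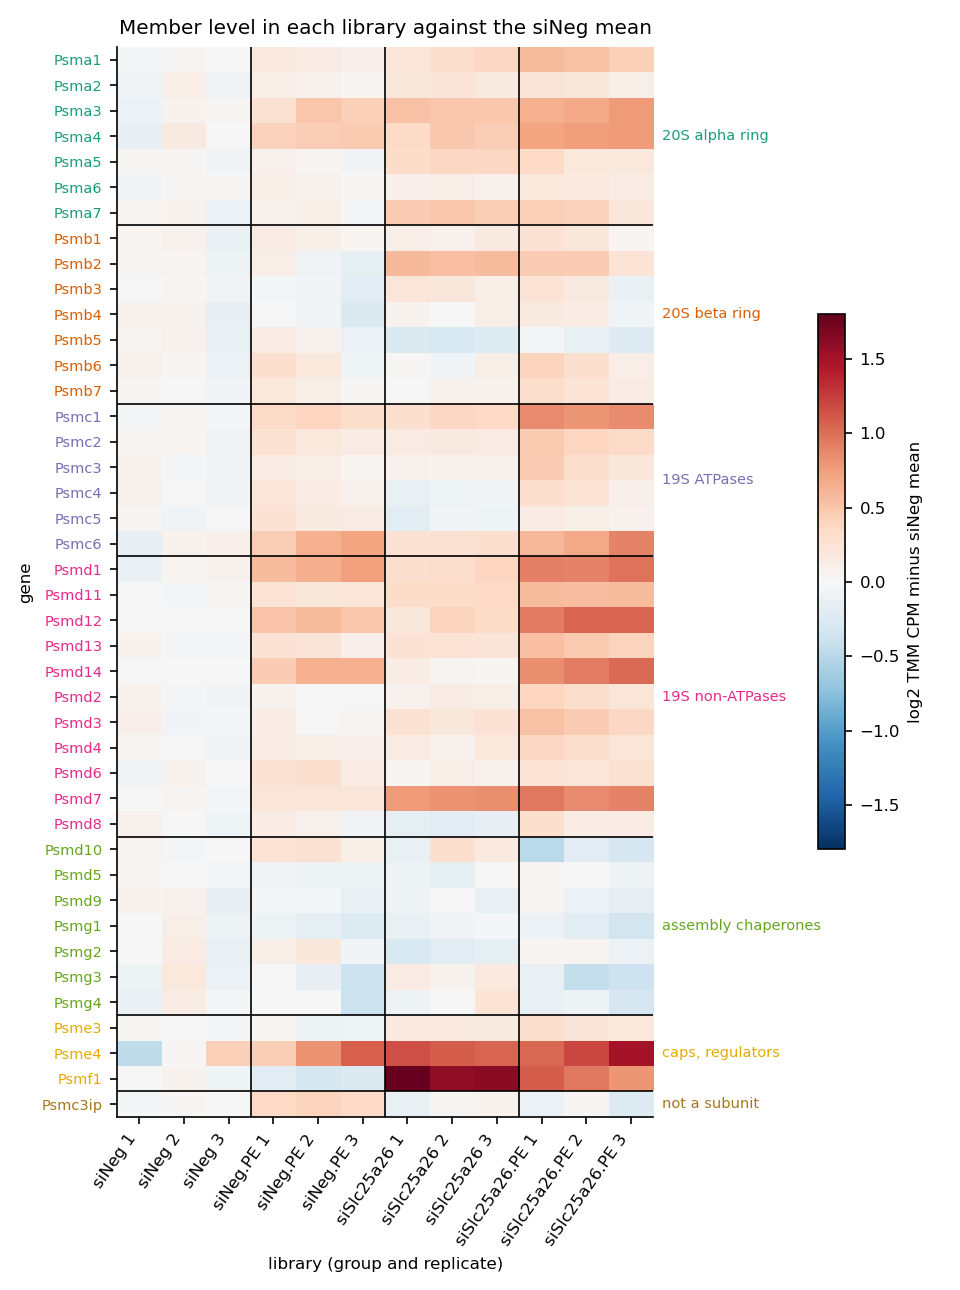
Level of the 42 tested members in each of the 12 libraries, as log2 TMM CPM minus the mean of the siNeg libraries, with rows grouped by role. Red is above and blue below the siNeg mean; Psmf1 and Psme4 stand out in both groups with siSlc25a26, and 16 of 17 19S rows, all but Psmc5, have their highest mean in the libraries labelled siSlc25a26.PE.

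Levels between genes are compared here per transcript length, as FPKM. Within siNeg the beta ring genes lay close together, from 151 FPKM for Psmb2 to 269 FPKM for Psmb1, a 1.78-fold range. The alpha ring genes spanned a 2.85-fold range, from 62.6 FPKM for Psma3 to 179 FPKM for Psma7. The 19S ATPases spanned 6.69-fold, with Psmc6 lowest at 20.9 FPKM and Psmc3 highest at 140 FPKM, and the 19S non-ATPases 6.62-fold, from 18.0 FPKM for Psmd14, the isopeptidase that removes ubiquitin chains, to 119 FPKM for Psmd8. Psmc6 and Psmd14, at the bottom of the 19S range, were among the genes that rose most with PE. Psmd11, the next lowest non-ATPase at 32.5 FPKM, rose by 0.23 on the log2 scale in siNeg. Over the 31 genes of the 20S and 19S particles the range was 15.0-fold in siNeg and 10.6-fold in siNeg.PE. It was 15.4-fold in siSlc25a26 and 8.81-fold in the libraries labelled siSlc25a26.PE. In each group this range is the ratio of Psmb1 to Psmd14, so its narrowing describes these genes and not all 31. The assembly chaperones were lower, with a median of 26.5 FPKM in siNeg, and Psmd10 was lowest at 3.49 FPKM.

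The first comparison asked how PE moved the members under the control siRNA. In siNeg, 16 of 42 members rose and 1 fell with PE (38.1% and 2.38%), beside 25.2% and 24.3% of all 13719 tested genes. Their median log2 fold change was 0.11, beside 0.00 over all tested genes. Past the added threshold of a 1.5-fold change lay 3 members, Psme4, Psmd1 and Psmc6, beside 20.7% of all tested genes, so most changes were small. The 19S particle held most of the rises, with 4 of 6 ATPases and 7 of 11 non-ATPases, against 3 of 7 alpha ring genes. Of the 7 beta ring genes 0 passed edgeR's test, 0 had an unadjusted p under 0.05, and DESeq2 and limma-voom called 0.

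Psmd1, the large scaffold subunit of the 19S base, had 144, 161 and 164 CPM in siNeg and 232, 246 and 261 CPM in siNeg.PE. All 3 PE libraries were above all 3 controls, and the log2 fold change was 0.66 (SE 0.07, edgeR adjusted p = 0.000246). Psmd14 had 25.6, 25.3 and 25.3 CPM in siNeg and 35.0, 39.5 and 39.6 CPM with PE. It rose by 0.58 on the log2 scale (SE 0.08, edgeR adjusted p = 0.000570), and the groups did not overlap. Psmd12, another subunit of the 19S lid, rose from 64.2, 64.5 and 63.5 CPM to 91.5, 95.4 and 90.1 CPM, a log2 fold change of 0.53 (SE 0.05).

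The ATPase Psmc6 had 42.9, 49.5 and 50.8 CPM in siNeg and 65.0, 74.3 and 78.1 CPM in siNeg.PE, a log2 fold change of 0.60 (SE 0.09). Psma4 and Psma3 of the alpha ring rose by 0.44 and 0.40. The ubiquitin receptor subunits Psmd2 and Psmd4 did not pass, at log2 fold changes of 0.03 and 0.11. The catalytic subunits did not pass either: Psmb5, Psmb6 and Psmb7 had log2 fold changes of 0.04 (SE 0.08), 0.15 (SE 0.09) and 0.12 (SE 0.06). Of the 7 assembly chaperones 0 passed edgeR's test, with 1 at an unadjusted p under 0.05 and 0 by DESeq2, and their median log2 fold change was -0.08.

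Psme4, the cap known as PA200, varied widely between replicates, with 71.0, 99.3 and 132 CPM in siNeg and 133, 171 and 206 CPM in siNeg.PE. The lowest PE library lay just above the highest control. Its log2 fold change was 0.76 (SE 0.23, edgeR adjusted p = 0.0236), and the call was lost when siNeg replicate 1 or 2 or siNeg.PE replicate 2 or 3 was left out, with values from 0.57 to 1.00. Psmf1, which encodes the proteasome inhibitor PI31, was the member that fell, from 45.7, 47.5 and 42.9 CPM to 39.7, 36.8 and 37.9 CPM, by 0.25 on the log2 scale (SE 0.06, edgeR adjusted p = 0.0119). That call was lost without siNeg.PE replicate 2, with values from -0.28 to -0.22 when libraries were left out.

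**Figure D2:**
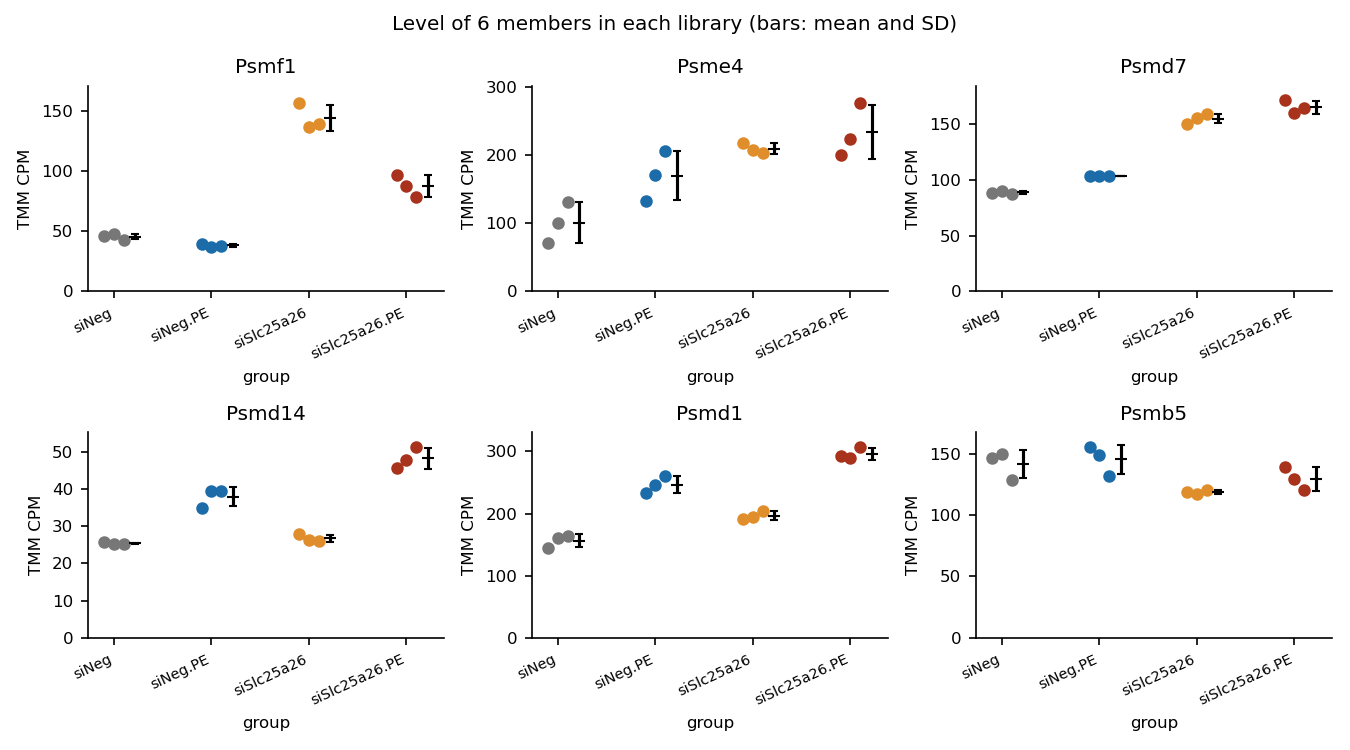
TMM CPM of 6 members in each library (points), with the mean and SD of each group (bars, n = 3). Psmd14 and Psmd1 are higher in both groups with PE, Psmd7 and Psmf1 in both groups with siSlc25a26, Psme4 varies most between replicates in every group but siSlc25a26, and Psmb5 is lower in siSlc25a26 than in siNeg with no overlap.

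The same treatment was then compared between siSlc25a26 and the libraries labelled siSlc25a26.PE. Here 22 of 42 members rose and 2 fell, beside 26.4% and 26% of all 13776 tested genes, with a median log2 fold change of 0.19 beside -0.0036 over all tested genes. Past 1.5-fold lay 4 members, Psmd14, Psmd12, Psmd1 and Psmf1, beside 20.5% of all tested genes. This split depended on the scaling: with limma on log2(FPKM + 1), where the median of all tested genes was -0.13, 7 members rose and 11 fell, beside 2015 and 5653 of 13776 genes, and on library totals without TMM factors, a setting chosen after seeing the data with an all-gene median of -0.18, 7 rose and 10 fell, beside 2087 and 5726 genes. After the log2(FPKM + 1) values were centred on each library's median, also chosen after seeing the data, all 24 calls held. In that setting 4013 of 13776 genes were higher and 3182 lower, with an all-gene median of 0.04. Centring, like TMM, takes the typical gene as unchanged, so part of this agreement is built in. The rises are therefore changes relative to the other genes of the same libraries.

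All 6 ATPases and 10 of 11 non-ATPases of the 19S particle rose on the TMM scale, 3 of 7 alpha ring genes and 2 of 7 beta ring genes (Psmb6 and Psmb7). Psmd14 had 27.9, 26.3 and 26.1 CPM in siSlc25a26 and the libraries labelled siSlc25a26.PE had 45.6, 47.9 and 51.4 CPM, with a log2 fold change of 0.87 (SE 0.07, edgeR adjusted p = 1.09e-05). Psmd12 rose from 73.8, 84.2 and 81.7 CPM to 123, 133 and 132 CPM, a log2 fold change of 0.71 (SE 0.06). For both genes the groups were far apart, and both also rose with limma on log2(FPKM + 1). Psmd1 and Psmc1 followed at 0.61 and 0.50. Psmd2 and Psmd4 rose by 0.22 and 0.19 on the TMM scale, and Psmb5 did not pass at 0.15 (SE 0.06). The calls of Psmd4 (0.16 to 0.23) and Psmb6 (0.20 to 0.33) were lost without siSlc25a26 replicate 1 or 2 or siSlc25a26.PE replicate 2, and that of Psmb7 (0.17 to 0.25) without siSlc25a26 replicate 1 or siSlc25a26.PE replicate 2. Psma3 rose by 0.21 on the TMM scale and stood at -0.0094 with limma on log2(FPKM + 1).

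Psmf1 fell from 157, 137 and 139 CPM in siSlc25a26 to 96.9, 87.5 and 78.5 CPM in libraries labelled siSlc25a26.PE, by 0.70 on the log2 scale (SE 0.08, edgeR adjusted p = 0.000135). The assembly chaperone Psmg3 had 24.2, 22.6 and 24.6 CPM and then 19.8, 16.2 and 16.7 CPM, and it fell by 0.42 (SE 0.09). Both stayed lower and past the threshold under each scaling tried. Psmg2, another chaperone of alpha ring assembly, rose by 0.22 on the TMM scale, and the call was lost without siSlc25a26 replicate 1 or 2 or siSlc25a26.PE replicate 2, with values from 0.18 to 0.27.

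The siRNA was compared next, first without PE. In siSlc25a26 20 of 42 members were higher and 2 lower than in siNeg, beside 23.3% and 21.7% of all 13829 tested genes, with a median log2 fold change of 0.13 beside 0.01 over all tested genes. Past 1.5-fold lay 3 members, Psmf1, Psme4 and Psmd7, beside 16.1% of all tested genes. Higher were 6 of 7 alpha ring genes, 2 of 7 beta ring genes, 3 of 6 ATPases and 6 of 11 non-ATPases. All 3 alternative caps and regulators were higher, and of the 7 assembly chaperones 0 passed edgeR's test, 1 had an unadjusted p under 0.05, and DESeq2 called 0.

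Psmf1 had 45.7, 47.5 and 42.9 CPM in siNeg and 157, 137 and 139 CPM in siSlc25a26. The lowest siSlc25a26 library was far above the highest control, and the log2 fold change was 1.67 (SE 0.07, edgeR adjusted p = 1.77e-07), a 3.18-fold difference. Psme4 had 71.0, 99.3 and 132 CPM in siNeg and 218, 207 and 202 CPM in siSlc25a26, with no overlap and a log2 fold change of 1.06 (SE 0.18, edgeR adjusted p = 0.00143). Psme3, the nuclear cap subunit known as PA28 gamma, was higher by 0.17 (SE 0.04), a call lost without siNeg replicate 2, with values from 0.14 to 0.18.

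Psmd7, a lid subunit that pairs with Psmd14, had 88.2, 90.5 and 87.5 CPM in siNeg and 151, 156 and 159 CPM in siSlc25a26. The groups were far apart, with a log2 fold change of 0.81 (SE 0.05, edgeR adjusted p = 1.93e-06), while Psmd14 did not pass at 0.07 (SE 0.07). In the core, Psmb2 rose from 110, 110 and 101 CPM to 161, 156 and 159 CPM (log2 fold change 0.57, SE 0.05), and Psma3 and Psma7 were higher by 0.51 and 0.47. Psmb5, the subunit with chymotrypsin-like activity, had 147, 150 and 129 CPM in siNeg and 119, 117 and 120 CPM in siSlc25a26. It was lower by 0.26 on the log2 scale (SE 0.06, edgeR adjusted p = 0.00921), and all 3 siSlc25a26 libraries lay below all 3 controls. Psmb6 and Psmb7 did not pass, at 0.03 and 0.04. Psmd8 was the other lower member, at -0.17, and its call was lost when any library except siNeg replicate 3 was left out, with values from -0.22 to -0.13.

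Under PE, the libraries labelled siSlc25a26.PE had 21 of 42 members higher and 1 lower than siNeg.PE, beside 20.1% and 20.1% of all 13671 tested genes, with a median log2 fold change of 0.20 beside -0.0028 over all tested genes. Past 1.5-fold lay 2 members, Psmf1 and Psmd7, beside 15.8% of all tested genes. With limma on log2(FPKM + 1), 18 were higher and 4 lower, beside 2103 and 3384 of all tested genes. Psmf1 had 39.7, 36.8 and 37.9 CPM in siNeg.PE and the libraries labelled siSlc25a26.PE had 96.9, 87.5 and 78.5 CPM, with a log2 fold change of 1.21 (SE 0.09, edgeR adjusted p = 1.02e-05) with no overlap. Psmd7 had 103, 103 and 104 CPM and then 171, 160 and 165 CPM, a log2 fold change of 0.69 (SE 0.05).

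Psmd12, Psmc1 and Psmb2 were higher by 0.50, 0.49 and 0.43. Psmd14, Psmd2 and Psmd4 were higher by 0.36, 0.29 and 0.20, the last a call lost when any library except siSlc25a26.PE replicate 3 was left out, with values from 0.17 to 0.26. Psme3 and Psme4 were higher by 0.29 and 0.47. The Psme4 groups overlapped, and its call was lost without siNeg.PE replicate 1 or 2 or siSlc25a26.PE replicate 2 or 3, with values from 0.32 to 0.61. Psmb5, Psmb6 and Psmb7 did not pass, at -0.16, 0.13 and 0.13. The lower member was Psmc3ip, the gene outside the complex, with 12.2, 12.5 and 12.2 CPM in siNeg.PE, against 8.8, 9.8 and 8.1 CPM in those labelled siSlc25a26.PE (log2 fold change -0.46, SE 0.10).

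**Figure D3:**
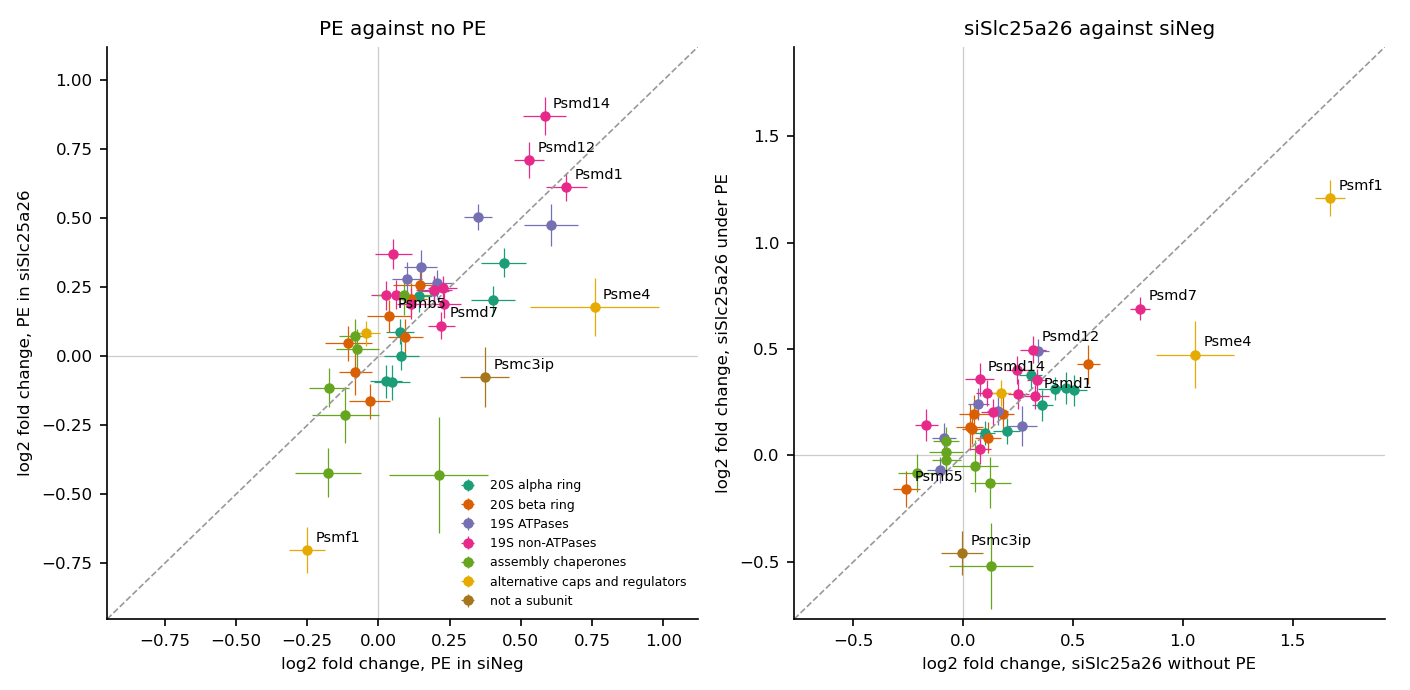
Log2 fold changes of the 42 tested members with standard errors, for PE in siNeg against PE in siSlc25a26 (left) and for siSlc25a26 without PE against under PE (right), on the TMM scale; the dashed line marks equal values. Most members lie near the line, Psmd14, Psmd12 and Psmd1 are highest on the left and Psme4 is furthest to the right there, and Psmf1, Psme4 and Psmd7 lead without PE in the right panel; on the FPKM scale the PE in siSlc25a26 values lie lower, with 11 of 42 members called lower beside 5653 of 13776 genes.

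The 2 comparisons within each panel of that plot share no library. For PE, 13 members rose in both, 81.2% of those that rose in siNeg and 59.1% of those that rose in siSlc25a26, and across the 42 members Pearson's r was 0.69 and Spearman's rho 0.67. Over the 13506 genes tested in both, the shares were 69.9% and 66.6%, with r of 0.73 and rho of 0.74. For the siRNA, 17 members were higher in both, 85% and 81.0% of the 2 lists, with r of 0.79 and rho of 0.78, beside 53.2% and 62.2%, r of 0.80 and rho of 0.63 over 13508 genes. These are descriptions across genes, which are not independent replicates and share library scaling. On the TMM scale, 9 members were higher in all 4 comparisons (Psma1, Psma3, Psma4, Psmc1, Psmc2, Psmd1, Psmd11, Psmd12 and Psmd13; 21.4%, beside 3.57% of the 13379 genes tested in all 4), and 8 of 42 passed in none (beside 19.1% of those genes; Psma6, Psmb1, Psmb4, Psmd5, Psmd9, Psmd10, Psmg1 and Psmg4). The 4 comparisons share groups, each group standing in 2 of them, so part of such agreement is built in. Of the 9, Psma4, Psmc1, Psmd1 and Psmd12 also passed in all 4 with limma on log2(FPKM + 1) and on library totals, the latter chosen after seeing the data, and the other 5 did not. The calls of Psma1 and Psmd13 for PE in siNeg were lost without siNeg replicate 2 or 3 or siNeg.PE replicate 1 or 2, and that of Psma1 also without siNeg replicate 1. Psma1 lost its call for PE in siSlc25a26 without siSlc25a26.PE replicate 2. Psmc2 lost its call for PE in siNeg without siNeg.PE replicate 1, without PE when any library except siNeg replicate 1 was left out, and under PE without siNeg.PE replicate 2 or 3 or siSlc25a26.PE replicate 1 or 2. Calls that held in each fit with 1 library left out were 10 of 17 for PE in siNeg, 18 of 24 for PE in siSlc25a26, 17 of 22 for siSlc25a26 without PE and 16 of 22 under PE. The share of calls kept over all tested genes is not given here, so these counts have no background and describe the members only.

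Whether the PE effect differed between the siRNAs was tested in 1 model over all 12 libraries. In this test 0 of 42 members were higher and 2 lower, beside 5.48% and 5.73% of all 14097 tested genes, and 0 members passed 1.5-fold, beside 5.5%. At an unadjusted p under 0.05 edgeR gave 3 members above and 5 below 0, 1 of them past 1.5-fold. No share of all tested genes at that unadjusted threshold is given here, so these counts have no background beside them. DESeq2 called 1 member higher, a 19S non-ATPase, and limma-voom 0, and neither called a member past 1.5-fold. With limma on log2(FPKM + 1), 6 members were lower and 0 higher, beside 1759 and 560 of all tested genes. The members called lower by edgeR on the TMM scale were Psmf1 and Psmc3ip. The Psmf1 difference was -0.47 (SE 0.11, edgeR adjusted p = 0.0176), since it fell further with PE in siSlc25a26, and it passed in every fit with 1 library left out. Psmc3ip had 9.4, 9.7 and 9.5 CPM in siNeg and 12.2, 12.5 and 12.2 CPM in siNeg.PE, against 8.7, 9.8 and 9.9 CPM in siSlc25a26. Its difference was -0.47 (SE 0.13, edgeR adjusted p = 0.0361), and the call was lost without siNeg replicate 1 or 2, siNeg.PE replicate 2 or 3, siSlc25a26 replicate 2 or 3, or siSlc25a26.PE replicate 1 or 3, with values from -0.55 to -0.40. Psmd10, a chaperone with 1.12 to 1.93 CPM over all libraries, did not pass at -0.66 (SE 0.25). The highest members were Psmd8 at 0.29 (SE 0.09, edgeR adjusted p = 0.0537) and Psmd14 at 0.26 (SE 0.10), and neither passed edgeR's test.

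Summed over each subgroup, the 19S non-ATPases had 1383 CPM in siNeg, 1603 in siNeg.PE, 1604 in siSlc25a26 and 1976 in the libraries labelled siSlc25a26.PE on the TMM scale. The assembly chaperones had 209, 197, 201 and 193 CPM in the same order. The beta ring sum was 1002, 1025, 1074 and 1117 CPM on the TMM scale, while on library totals without TMM factors it was 1131 CPM in siSlc25a26 and 1057 in the libraries labelled siSlc25a26.PE, the reverse order.

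**Figure D4:**
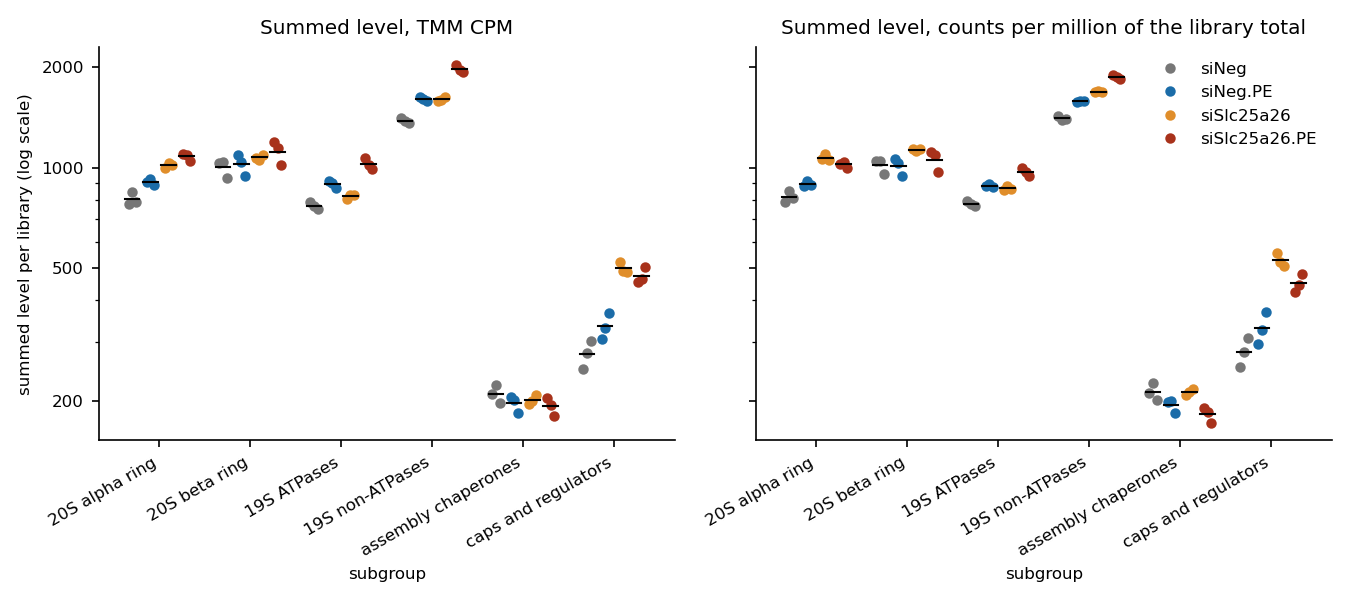
Summed level of each subgroup in each library (points; bars are group means, n = 3; log axis) on the TMM scale (left) and as a share of the library total (right). The 19S sums are highest in the libraries labelled siSlc25a26.PE on both scales, whereas the alpha and beta ring sums fall from siSlc25a26 to siSlc25a26.PE as a share of the total and not on the TMM scale.

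The constitutive catalytic subunits were set beside their immunoproteasome counterparts as ratios of FPKM. In siNeg, Psmb5 had 192, 195 and 170 FPKM and Psmb8 7.22, 6.32 and 5.53 FPKM. In siSlc25a26, Psmb5 had 163, 161 and 162 FPKM and Psmb8 192, 173 and 174 FPKM, so the immunoproteasome transcript exceeded the constitutive one in all 3 libraries. The Psmb8 to Psmb5 ratio was 0.0342 in siNeg and 1.11 in siSlc25a26, and 0.0180 in siNeg.PE and 0.559 in the libraries labelled siSlc25a26.PE. The Psmb9 to Psmb6 ratio went from 0.0355 to 0.706 without PE and from 0.0246 to 0.284 under PE. The Psmb10 to Psmb7 ratio went from 0.0694 to 0.522 and from 0.0506 to 0.250. Each difference had an exact two-sided permutation p of 0.1, the smallest that 3 against 3 libraries allow, and no groups overlapped.

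**Figure D5:**
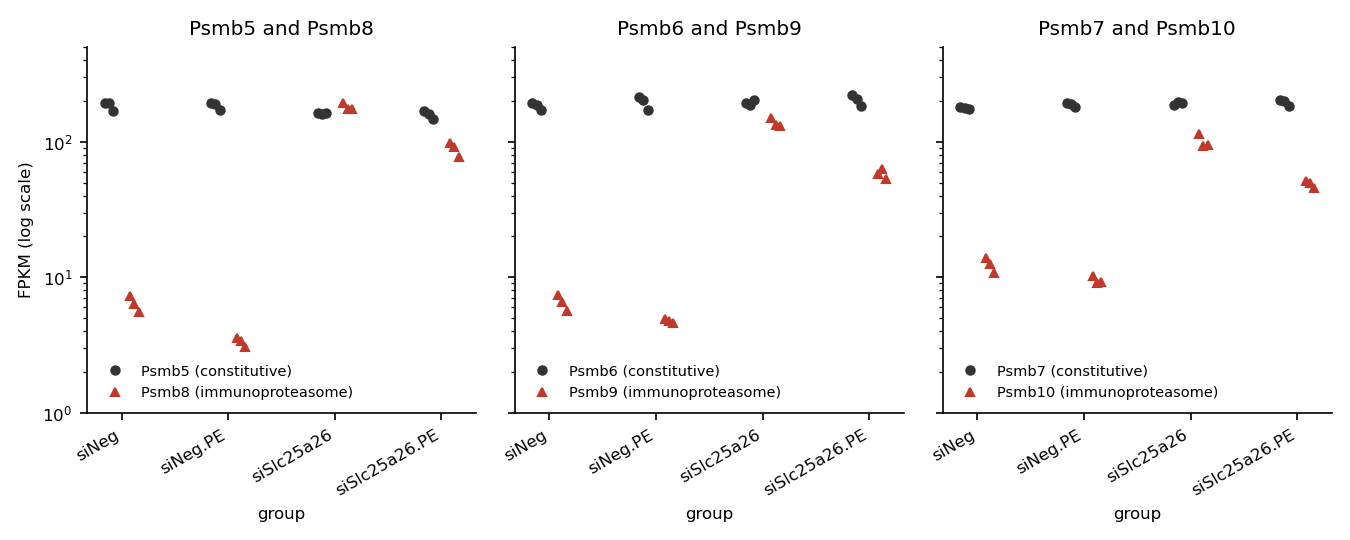
FPKM (log axis) of the catalytic subunits in each library, with the constitutive gene as circles and its immunoproteasome counterpart as triangles. The circles stay between 148 and 220 FPKM, while the triangles move from under 14 FPKM with siNeg to between 45.2 and 192 FPKM with siSlc25a26.

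All 5 immunoproteasome genes were higher in siSlc25a26 without PE, beside 23.3% of all tested genes. The log2 fold changes were 4.76 for Psmb8, 4.33 for Psmb9 and 2.89 for Psmb10. With PE, 4 of 5 fell in siNeg and 5 of 5 in siSlc25a26, beside 24.3% and 26% of all tested genes. Of the interferon response markers, 11 of 11 tested were higher in siSlc25a26 without PE, beside the same 23.3%. The sum of the 12 was 209 to 246 CPM in siNeg and 148 to 169 in siNeg.PE. It was 8213 to 8950 in siSlc25a26 and 4882 to 5416 in the libraries labelled siSlc25a26.PE. Irf7 was the most abundant of them in the siSlc25a26 libraries. The part of the interferon response in the changes of the constitutive members was not tested.

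Among 18 genes of proteasome partners, 16 were tested. With PE, 7 rose and 2 fell in siNeg (43.8% and 12.5%, beside 25.2% and 24.3% of all tested genes). In siSlc25a26, 6 rose and 2 fell with PE (37.5% and 12.5%, beside 26.4% and 26%). The deubiquitinases Uchl5 and Usp14, which trim chains on the 19S particle, rose by 0.71 and 0.64 in siNeg and by 0.69 and 0.66 in siSlc25a26. In siSlc25a26 without PE 4 were higher and 2 lower (25% and 12.5%, beside 23.3% and 21.7% of all tested genes). Fbxo7, which binds PI31, led the higher ones at 0.64. Pomp, the maturation factor of the beta ring, was lower by 0.23 without PE and by 0.45 under PE. The former call was lost without siNeg replicate 2 or any siSlc25a26 library, with values from -0.30 to -0.18.

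Of 15 genes that control proteasome transcription, 2 rose and 2 fell with PE in siNeg. These were 13.3% each way, beside 25.2% and 24.3% of all tested genes. With PE in siSlc25a26, 4 rose and 2 fell (26.7% and 13.3%, beside 26.4% and 26%). In siSlc25a26 without PE, 6 were higher and 1 lower (40% and 6.67%, beside 23.3% and 21.7%). Under PE, 4 were higher and 1 lower (26.7% and 6.67%, beside 20.1% and 20.1%). Nfe2l1, which encodes the factor NRF1 that raises proteasome gene expression when proteasome activity is short, fell by 0.19 with PE in siNeg and was higher by 0.32 in siSlc25a26 without PE and by 0.31 under PE. Its call with PE in siNeg was lost without siNeg replicate 1 or 3 or siNeg.PE replicate 1 or 2, with values from -0.22 to -0.16. Mafk, a small Maf partner, rose with PE by 1.09 in siNeg and 1.54 in siSlc25a26. In a separate list of 6 genes of ubiquitin and its activation, Uba6, which encodes an E1 activating enzyme, rose by 1.04 with PE in siNeg. In that list 1 gene rose and 1 fell with PE in siNeg (16.7% each way, beside 25.2% and 24.3%). With PE in siSlc25a26, 2 rose and 2 fell (33.3% each way, beside 26.4% and 26%). There the highest value was 0.53, and 0 of 6 genes passed 1.5-fold, beside 20.5% of all tested genes. In the test of the PE interaction 0 of the 6 were called, beside 5.48% higher and 5.73% lower of all tested genes. Of 12 muscle ubiquitin ligases, 2 rose and 5 fell with PE in siNeg (16.7% and 41.7%, beside 25.2% and 24.3%). In siSlc25a26, 3 rose and 6 fell with PE (25% and 50%, beside 26.4% and 26%), and Fbxo32 (atrogin-1) fell by 1.58. In siSlc25a26 without PE 6 ligases were higher and 3 lower (50% and 25%, beside 23.3% and 21.7%). Trim63 (MuRF1) was among the higher ones, by 0.47, and Fbxl22 was lowest at -0.69. Under PE 4 ligases were higher and 3 lower (33.3% and 25%, beside 20.1% and 20.1%).

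Promoter windows from 250 bases before to 50 after the gene start were found in RefSeq (GRCr8) for 39 of 44 members, with none for Psma7, Psmb11, Psmd6, Psmd12 and Psmd14. On either strand, TGACNNNGC, the core of the antioxidant response element that NRF1 can bind, was in 8 member windows (20.5%), beside 14.3% of the 12382 windows of tested genes and 12.1% of all 33469. The CCAAT box (CCAAT) was in 20 (51.3%, beside 37.1% and 37.5%) and the GC box (GGGCGG) in 29 (74.4%, beside 60.0% and 33.1%). GAAANNGAAA, the core of the interferon-stimulated response element and a motif chosen after the values were seen, was in 4 members (Psma4, Psmb3, Psmd7 and Psmg4; 10.3%, beside 2.96% and 3.92%) and in 3 of the 5 immunoproteasome windows. A match is a description of letters and not a site of binding. Matches were also in members that passed in none of the 4 comparisons, Psmd9 for TGACNNNGC and Psmg4 for GAAANNGAAA. Psmf1, the member with the largest siRNA difference, had neither of these motifs. The windows printed below are examples picked with the values known, and a link between match and change was not tested. The windows of Psmd1, which rose with PE, of Psmb5, which was lower in siSlc25a26, and of Psmd7, which was higher there, are printed with matches of TGACNNNGC or GAAANNGAAA on either strand in capitals, from chr9:94157721-94158020 (plus strand), chr15:32047330-32047629 (minus strand) and chr19:52411267-52411566 (minus strand) of GRCr8.
Psmd1: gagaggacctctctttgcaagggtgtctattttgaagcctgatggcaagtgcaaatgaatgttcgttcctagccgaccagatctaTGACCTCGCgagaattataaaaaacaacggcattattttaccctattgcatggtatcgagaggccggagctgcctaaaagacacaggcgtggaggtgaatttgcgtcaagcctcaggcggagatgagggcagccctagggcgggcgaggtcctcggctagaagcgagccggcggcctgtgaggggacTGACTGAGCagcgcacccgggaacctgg
Psmb5: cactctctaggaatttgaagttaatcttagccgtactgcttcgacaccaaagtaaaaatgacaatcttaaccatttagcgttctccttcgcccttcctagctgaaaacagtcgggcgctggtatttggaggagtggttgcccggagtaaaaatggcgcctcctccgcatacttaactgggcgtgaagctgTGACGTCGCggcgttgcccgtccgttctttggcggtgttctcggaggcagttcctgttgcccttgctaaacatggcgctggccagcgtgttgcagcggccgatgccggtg
Psmd7: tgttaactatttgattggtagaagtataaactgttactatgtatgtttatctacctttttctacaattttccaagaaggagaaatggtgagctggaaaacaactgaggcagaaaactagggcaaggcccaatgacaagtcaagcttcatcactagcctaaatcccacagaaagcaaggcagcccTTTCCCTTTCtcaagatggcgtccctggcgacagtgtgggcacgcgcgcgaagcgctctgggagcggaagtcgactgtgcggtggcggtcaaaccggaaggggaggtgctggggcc

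Some members are less certain as measured. The deposited counts held decimals in all 12 libraries for 7 members (Psme3, Psmc1, Psmc3ip, Psmg1, Psmc5, Psmc6 and Psmd9), a sign that reads were shared out by estimate, and 28 members had no decimals in any library, as deposited and with no tolerance. RefSeq (GRCr8) names 46 pseudogenes or like-genes after 17 members, with 10 after Psmb3, and 1 of the 46 was in the count table, so reads of such copies could count for the parent gene. In the same annotation 7 members overlap another gene of the table, among them Psmd1 with Htr2b, Psmb1 with Tbp and Psmc6 with Styx, and since no source used here states that counting used the strand, reads of such pairs cannot be told apart.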

How the data were processed

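The authors deposited estimated counts per gene, about 21% of them not whole, for 12 libraries. The authors also deposited FPKM values, which are scaled by transcript length and library size. HISAT, Bowtie2 and the build Rnor_6.0 are named in the submitters' processing notes, and the counting program and its use of strand are not given in the sources used here. The design was written for whole counts, so the estimated counts were rounded before testing. Genes were filtered with filterByExpr, scaled by TMM and tested with edgeR 4.0.16 (quasi-likelihood F-test, R 4.3.3) on the groups compared, with Benjamini-Hochberg adjustment over all tested genes, and passed at an adjusted p under 0.05. The difference between PE effects was the interaction over all 12 libraries. The procedure was tested on simulated data. CPM values used TMM-scaled library sizes. Alternatives were DESeq2 1.42.0, its size factors in edgeR, limma 3.58.1 on voom weights or on log2(FPKM + 1) or log2(FPKM + 0.1), other filters, a replicate block, 1 fit of all libraries, and leaving out each library; library totals and centred FPKM were chosen after seeing the data. Catalytic ratios were compared by exact permutation (scipy 1.17.1). Named genes were the catalytic subunits, the 4 largest changes each way per comparison, members with an interaction call, caps, chaperones, receptor subunits, and for partner lists up to 3 changes each way, with Nfe2l1 and Pomp always. Values of other members that passed were added, and these were chosen after their values were seen. Members and lists were chosen with earlier results of these data known.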

Additional observations from a re-analysis of the deposited data

Results flagged for a closer look

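For 2 members the response to PE differed between the siRNAs by edgeR's interaction test with Benjamini-Hochberg adjustment. Both were lower, 2 of 42 (4.76%) beside 5.73% of all tested genes, and 0 were higher beside 5.48%, while limma on log2(FPKM + 1) gave 6 lower and 0 higher beside 1759 and 560 of 14097 genes. For Psmf1 the log2 PE effect in siSlc25a26 less that in siNeg was -0.47 (adjusted p = 0.0176), with effects of -0.70 and -0.25. For Psmc3ip, which is not a proteasome subunit, it was -0.47 (adjusted p = 0.0361), with effects of -0.08 and 0.37, and the call was lost in 8 of 12 fits with 1 library left out. Both draw on the libraries labelled siSlc25a26.PE, in which the target of the siRNA was not lower than in siNeg.PE. Groups of 3 libraries were not tested for outlying samples.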

How the results depend on the processing

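Over all 42 members and 54 fits with another setting, 112 of 2268 log2 fold changes had another direction than in the edgeR fit with TMM, 2 of them of a call, both Psma3 for PE in siSlc25a26. The largest value that turned was 0.21 in size. With 1 library left out, 52 of 1512 turned, 0 of them calls. DESeq2 and limma-voom called the same number of members as edgeR in each direction of the 4 comparisons of groups. Over the 11 other settings, the members higher were 12 to 20 for PE in siNeg (16 in the edgeR fit with TMM), 7 to 22 for PE in siSlc25a26 (22), 16 to 25 without PE (20) and 16 to 26 under PE (21). Over all tested genes, those higher were 2903 to 4352, 2015 to 4013, 2085 to 3883 and 2102 to 3359 in the same order. Below, counts that moved by over 1.5 times are given by setting, with the log2 fold changes that turned among the genes named by rule for that comparison, and the cause was not tested. With limma on log2(FPKM + 1), the values for PE in siNeg were 2 members lower (beside 3822 of 13719 genes), Psmb5 -0.0053, Psma5 -0.016 and Psmd2 -0.015. Those for PE in siSlc25a26 were 7 members higher (beside 2015 of 13776 genes), 11 members lower (beside 5653 of 13776 genes), Psmb1 -0.12, Psme3 -0.093, Psma3 -0.0094, Psmb5 -0.034, Psmd5 -0.082, Pomp -0.11 and Psmd9 -0.17. Those for siSlc25a26 without PE were 1 member lower (beside 2398 of 13829 genes) and Psmc3ip 0.055. Those for siSlc25a26 under PE were 4 members lower (beside 3384 of 13671 genes) and Psmd9 -0.073. Those in the test of the PE interaction were 6 members lower (beside 1759 of 14097 genes), Psmb7 -0.041, Psme3 -0.018, Psmb5 -0.028, Psmg1 -0.076, Psmd4 -0.056, Psmb6 -0.026, Psmg2 -0.00035, Psmb3 -0.12, Psmb8 -0.25 and Psmd9 -0.069. With limma on log2(FPKM + 0.1), the values for PE in siNeg were 2 members lower (beside 3830 of 13719 genes), Psmb5 -0.0053, Psma5 -0.017 and Psmd2 -0.015. The values for PE in siSlc25a26 were 7 members higher (beside 2018 of 13776 genes), 11 members lower (beside 5651 of 13776 genes), Psmb1 -0.12, Psme3 -0.095, Psma3 -0.0095, Psmb5 -0.034, Psmd5 -0.085, Pomp -0.11 and Psmd9 -0.18. The values for siSlc25a26 without PE were 1 member lower (beside 2381 of 13829 genes) and Psmc3ip 0.059. The values for siSlc25a26 under PE were 4 members lower (beside 3395 of 13671 genes) and Psmd9 -0.076. The values in the test of the PE interaction were 6 members lower (beside 1650 of 14097 genes), Psmb7 -0.041, Psme3 -0.018, Psmb5 -0.028, Psmg1 -0.077, Psmd4 -0.057, Psmb6 -0.026, Psmg2 -0.00027, Psmb3 -0.12, Psmb8 -0.11 and Psmd9 -0.072. On library totals without TMM factors, chosen after seeing the data, the values for PE in siNeg were 2 members lower (beside 3834 of 13719 genes), Psmb5 -0.0058, Psma5 -0.016 and Psmd2 -0.016. Those for PE in siSlc25a26 were 7 members higher (beside 2087 of 13776 genes), 10 members lower (beside 5726 of 13776 genes), Psmb1 -0.10, Psme3 -0.090, Psmb5 -0.027, Psmd5 -0.10, Pomp -0.10 and Psmd9 -0.15. Those for siSlc25a26 without PE were 1 member lower (beside 2491 of 13829 genes) and Psmc3ip 0.049. Those for siSlc25a26 under PE were 3 members lower (beside 3464 of 13671 genes), Psmd5 -0.0015 and Psmd9 -0.054. Those in the test of the PE interaction were 5 members lower (beside 1659 of 14097 genes), Psmb7 -0.037, Psme3 -0.0026, Psmb5 -0.022, Psmg1 -0.071, Psmd4 -0.054, Psmb6 -0.015, Psmb3 -0.11, Psmb8 -0.080 and Psmd9 -0.030. With log2(FPKM + 1) centred on library medians, also chosen after seeing the data, the values for PE in siNeg were Psma5 -0.0089 and Psmd2 -0.0074. The values for PE in siSlc25a26 were Psmd9 -0.0059. The values for siSlc25a26 without PE were 4 members lower (beside 4421 of 13829 genes), Psmb7 -0.034, Psmd14 -0.0093, Psmc3 -0.0086, Psmb6 -0.046 and Psmg4 -0.035. The values for siSlc25a26 under PE were 2 members lower (beside 2988 of 13671 genes) and Psmd9 -0.049. The values in the test of the PE interaction were 1 member higher (beside 1183 of 14097 genes), 1 member lower (beside 525 of 14097 genes), Psmb1 0.0035, Nppb 0.12 and Psmb8 -0.089. With limma-voom, the values for siSlc25a26 under PE were Slc25a26 0.0044. The values in the test of the PE interaction were Nppb 0.020 and Psmb3 -0.0037. With all 12 libraries in 1 fit, the values for siSlc25a26 without PE were 1 member lower (beside 2720 of 14097 genes) and Psmc3ip 0.022. The values for siSlc25a26 under PE were 2 members lower (beside 3019 of 14097 genes) and Slc25a26 0.0045. Under the filter of at least 10 counts in every library, the values for siSlc25a26 under PE were 2 members lower (beside 2836 of 12969 genes) and Psmd9 -0.0015. The values in the test of the PE interaction were 1 member higher (beside 806 of 12778 genes). With no filter, the values in the test of the PE interaction were 1 member lower (beside 699 of 18422 genes). With DESeq2, the values in the test of the PE interaction were 1 member higher (beside 993 of 12999 genes). With DESeq2's size factors in edgeR, the values in the test of the PE interaction were 1 member higher (beside 866 of 14097 genes). With TMM CPM in place of FPKM, the log2 difference of the Psmb10 to Psmb7 ratio under PE was 2.21.

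A fit with a replicate block gave for PE in siNeg 3 members lower (beside 4110 of 13719 genes); for siSlc25a26 under PE 2 members lower (beside 3300 of 13671 genes) and Slc25a26 0.0032; in the test of the PE interaction 1 member higher (beside 1001 of 14097 genes), Nppb 0.018 and Psmb3 -0.00029. Deviations of libraries with the same number correlated at -0.0913 to 0.216, not every library matched its own number best, and the labels name no shared litter or day, so the libraries share only a number.

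With 1 library left out at a time, the members higher were 11 to 16 for PE in siNeg, 17 to 24 for PE in siSlc25a26, 17 to 19 without PE and 15 to 22 under PE. Counts over all tested genes in these fits are not given here, so the member counts of this paragraph have no background beside them. Other ranges are given where a count moved by over 1.5 times or the value of a gene named by rule for that comparison turned. For PE in siNeg these were Psma7 -0.0011 to 0.084, Psmb5 -0.024 to 0.097 and 0 to 2 members lower. For PE in siSlc25a26 these were Psmb3 -0.13 to 0.041, Psmd9 -0.029 to 0.069 and 2 to 4 members lower. For siSlc25a26 without PE these were Psmb6 -0.042 to 0.068, Psmb7 -0.00083 to 0.061, Psmc3ip -0.037 to 0.055, Psmg4 -0.044 to 0.12 and 1 to 3 members lower. For siSlc25a26 under PE these were Psmd9 -0.040 to 0.072, Psmg1 -0.085 to 0.051, Psmg4 -0.19 to 0.027, Slc25a26 -0.13 to 0.084 and 1 to 2 members lower. In the test of the PE interaction these were Nfe2l1 -0.076 to 0.0029, Nppa -0.31 to 0.043, Nppb -0.35 to 0.13, Psmb1 -0.095 to 0.019, Psmb3 -0.075 to 0.10, Psmb6 -0.0039 to 0.17, Psmb8 -0.075 to 0.12, Psmg1 -0.018 to 0.10, 0 to 1 member higher and 1 to 3 members lower.

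Depth limits Psma8 and Psmb11, at 0 to 3 counts per library, and Psmd10, at 29 to 59 counts. With 3 libraries a group, small changes can miss the threshold, and such a miss does not show sameness. No external standard was used here to choose between TMM and library totals.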
